A study of Oryza sativa Japonica Group with 32 samples.

Results

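The comparison of 8-day seedlings with plumules, the young shoots of germinating rice, covered 6 of the 16 untreated RNA libraries of the series and 3 of its 8 tissues. All samples came from the japonica rice cultivar Nipponbare. The seedlings, 8 days old and given 14 h of light in every 24 h at 28 °C, gave 2 libraries. The plumules were collected 3 days after germination, either from plants kept in 16 h of light per 24 h or from plants kept for 24 h per day in the dark, with 2 libraries each, and the 4 plumule libraries were taken as 1 group. Of 38978 genes listed in the expression table, 24042 reached a TPM (the share of a library's transcripts, scaled by gene length) of 1 in at least 2 of the 6 libraries and were compared. Of 205691 N6-methyladenosine (m6A) sites listed, 140701 sites in 16228 genes were read at least 20 times in seedlings, light plumules and dark plumules alike and were compared. The sources used here do not say whether roots, coleoptile or seed remains were collected, or at what time of day. Age, organ and growth light differed together between seedlings and plumules and cannot be told apart.

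A plumule is built from reserves that the germinating grain supplies, and its cells divide and elongate before its leaves take over. A green seedling shoot lives on its own photosynthesis: light-harvesting proteins pass energy to the photosystems, the electron transport chain makes reducing power, and Rubisco with the Calvin cycle fixes carbon. m6A is the most common internal mark on messenger RNA, placed mostly within a short motif in which the methylated adenine follows a purine and precedes cytosine (RAC, where R is A or G) and found above all in the 3′ untranslated region (UTR) of the transcript.

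The 6 libraries held between 13062291 and 15516038 gene-assigned reads, and between 22304 and 23207 genes had at least 1 TPM in each. On the log2(TPM + 1) scale the seedling libraries correlated with each other at 0.988 and the plumule libraries at 0.991 to 0.994, while seedling against plumule libraries gave 0.841 to 0.869, a description across genes, which are not independent. Between light and dark plumules only 3 genes passed an adjusted p of 0.05 in limma, with 1619 genes under an unadjusted p of 0.05. The labels call the replicates biological without saying which plants they came from, so the p-values measure the spread between these libraries. In bulk RNA, fewer cells of a type and less RNA per cell cannot be told apart.

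Most of the transcriptome differed between seedlings and plumules. With the limma test on log2(TPM + 1), in which a log2 difference is seedling minus the mean of light and dark plumules, 7754 genes were higher in seedlings, or 32.3% of the genes tested, and 9263 were lower, or 38.5%. Many of these differences were small, with a median log2 difference over all tested genes of −0.10 and a median standard error (SE) of 0.11. At least 2-fold differences, counted under a rule added after the number of calls was seen, were found for 3589 genes higher in seedlings (14.9%) and 1562 genes lower (6.5%). The counts of each gene group below are to be read beside these shares and this median. The most abundant transcripts changed almost completely: CAB2R, RbcS3, RBCS (Os12g0274700), CAB1R and LHCB, all photosynthesis genes, led in seedlings, and OsDT11, the unnamed gene Os12g0548700, Osthi7, OsTHI3 and OsGRP3 led in plumules. OsGRP3, a glycine-rich protein gene, was the exception with 7474 and 6543 TPM in seedlings, against 8263, 7205, 7928 and 6864 TPM in plumules, here and below in the order light 1, light 2, dark 1 and dark 2. Its ranges overlapped and it was not called without a replicate block (log2 difference −0.11, adjusted p = 0.283), though with one it was lower (adjusted p = 0.0147).

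**Figure D1:**
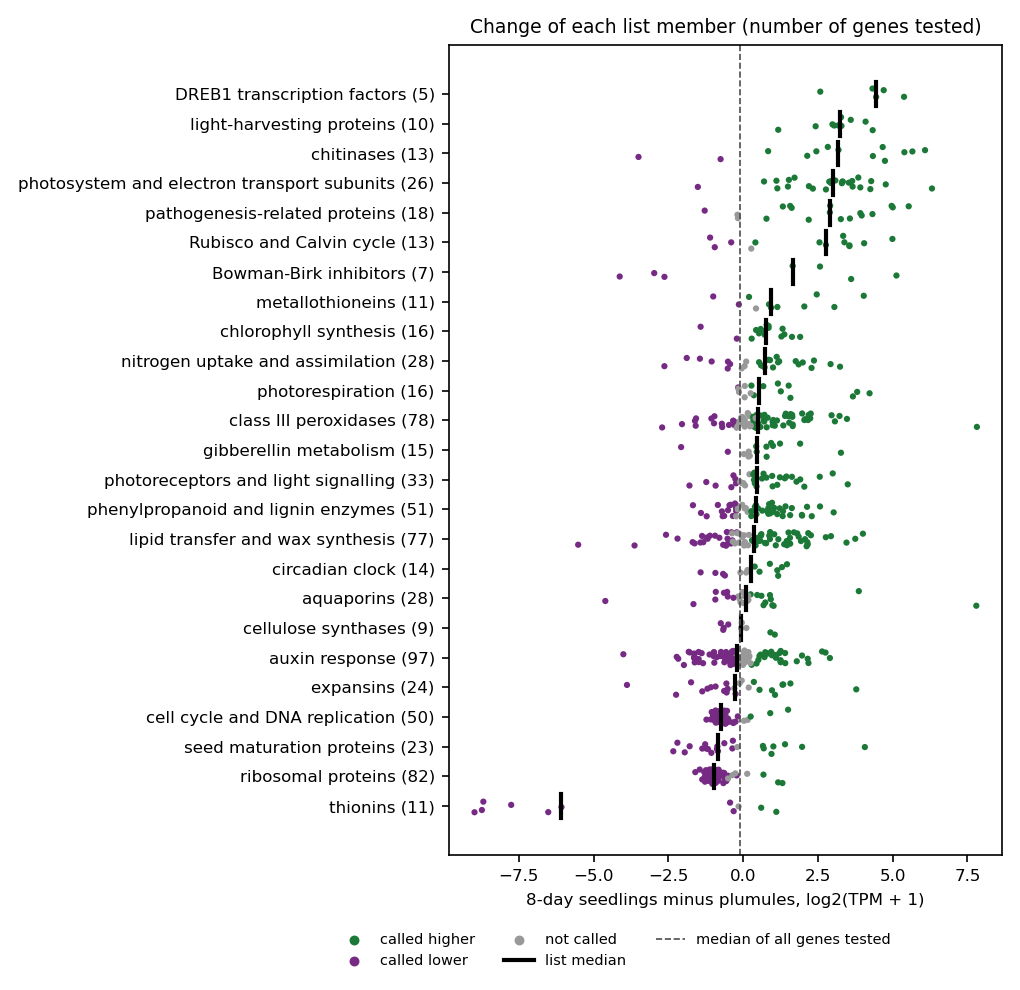
Log2 difference in log2(TPM + 1), 8-day seedlings minus plumules, on the x axis for every tested member of 25 gene lists, 1 list per line, with a bar at each list median and a dashed line at the median of all 24042 genes. Light-harvesting and photosystem genes sit far to the right with medians of 3.22 and 3.02, and ribosomal protein genes sit to the left with a median of −0.96.

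All 10 light-harvesting protein genes, whose products bind chlorophyll in the antennae of the photosystems, were higher in seedlings, each by at least 2-fold, with a median log2 difference of 3.22. Their summed level was 47580 and 56960 TPM in the lower and higher seedling library, against 3618 to 5491 TPM in plumules. CAB2R, a major antenna protein of photosystem II, had 15065 and 12467 TPM in seedlings, against 718, 631, 972 and 944 TPM in plumules (log2 difference 4.09, SE 0.10, adjusted p = 2.0e-13). Lhcb1.1, of the same antenna, had 8138 and 6755 TPM in seedlings, against 325, 273, 467 and 441 TPM in plumules (log2 difference 4.33). The groups lay far apart for both genes, and among the plumules the dark libraries were above the light ones. For the 10 antenna genes the light minus dark differences ran between −0.29 and −0.60 on the log2 scale, none called. The smallest difference was that of CabE, with 8.32 ± 0.58 TPM in seedlings (SD, n = 2) and 3.17 ± 0.60 TPM in plumules (SD, n = 4; log2 difference 1.17). Several of these genes are close copies, so reads may be split between them and single-gene levels are less certain than their sum.

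Photosystem and electron transport subunits moved the same way, with 25 of 26 tested genes higher in seedlings, 24 of them by at least 2-fold, and a median log2 difference of 3.02. PsbR, a small extrinsic subunit of photosystem II, had 825 and 1028 TPM in seedlings, against 9.14, 10.1, 11.1 and 12.4 TPM in plumules (log2 difference 6.31, SE 0.08, adjusted p = 1.8e-16). PSBS1, which is needed for the harmless release of excess light energy as heat, had 1717 and 1460 TPM in seedlings, against 50.1, 47.6, 68.8 and 65.4 TPM in plumules (log2 difference 4.77). OsPC, the copper protein plastocyanin that carries electrons to photosystem I, had 5006 and 4455 TPM in seedlings, against 478, 407, 556 and 487 TPM in plumules (log2 difference 3.30). No library of one group reached the range of the other for any of the 3. Plumules were thus not without these transcripts: PsbO, of the oxygen-evolving complex, stood at 392 to 491 TPM in them and at 4785 and 4117 TPM in seedlings. The gene that went the other way was OsFd3, a ferredoxin, with 161 and 178 TPM in seedlings, against 494, 471, 496 and 485 TPM in plumules (log2 difference −1.52). LIR1, a light-responsive gene outside the list whose product attaches ferredoxin-NADP reductase to the thylakoid, was among the largest rises, with 1833 and 1727 TPM in seedlings, against 35.6, 29.6, 38.1 and 36.6 TPM in plumules (log2 difference 5.64, adjusted p = 3.4e-16).

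Of 13 tested Rubisco and Calvin cycle genes 9 were higher in seedlings and 3 lower, with a median log2 difference of 2.77. RbcS3, a Rubisco small subunit, had 11521 and 12745 TPM in seedlings, against 717, 695, 752 and 775 TPM in plumules (log2 difference 4.04, SE 0.13, adjusted p = 1.5e-11). OsRcaII, Rubisco activase, had 1308 and 1436 TPM in seedlings, against 113, 104, 121 and 128 TPM in plumules (log2 difference 3.55). OsPrk, phosphoribulokinase, had the same log2 difference of 3.55 at lower levels, with 325 and 452 TPM in seedlings and between 29.9 and 36.3 TPM in plumules. The differences within families varied in size. RbcS1 had 156 and 145 TPM in seedlings, against 126, 105, 141 and 131 TPM in plumules. Both seedling libraries lay above all plumules, and the gene was not called by the limma test (log2 difference 0.27, adjusted p = 0.12) but was higher in 6 of the alternatives, for example with edgeR (0.37, adjusted p = 0.0024). Among the phosphoglycerate kinases, which serve both the Calvin cycle and glycolysis, OsPGK3 was higher (log2 difference 2.55) and OsPGK2 and PGK were lower (−0.95 and −1.11), OsPGK2 with 358 and 430 TPM in seedlings, against 756, 773, 749 and 761 TPM in plumules. The triosephosphate isomerase gene OsTPI1 was the remaining lower one (−0.40).

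**Figure D2:**
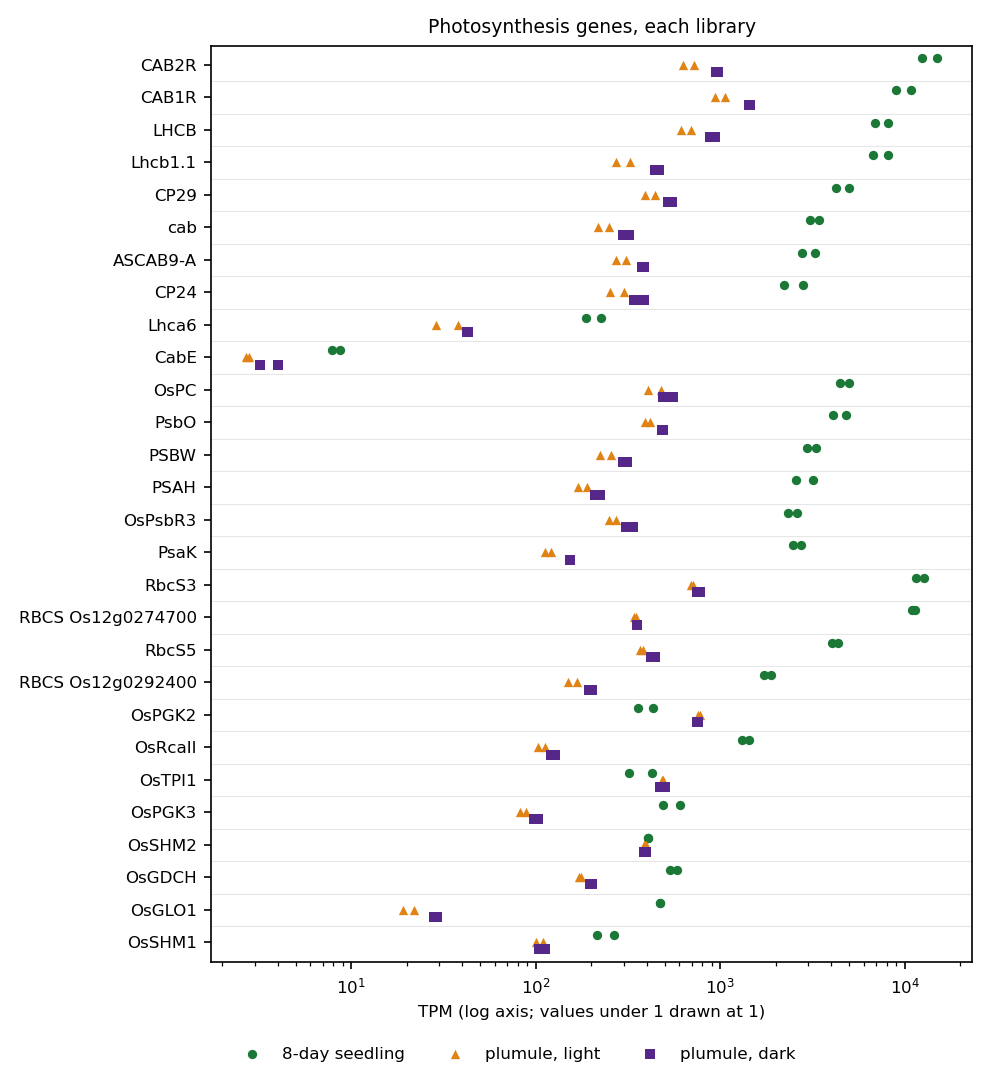
TPM of each library on a log axis for 10 light-harvesting, 6 photosystem and electron transport, 8 Rubisco and Calvin cycle and 4 photorespiration genes, 1 gene per line, with 2 points for 8-day seedlings, 2 for light plumules and 2 for dark plumules. Most genes show seedling points well to the right of all plumule points, while OsSHM2 has seedling points close to the plumules and OsPGK2 and OsTPI1 have them to the left.

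Chlorophyll synthesis genes were higher less steeply. Of 16 tested, 14 were higher and 2 lower, but only 5 of the 14 by at least 2-fold, and the median log2 difference was 0.75. OsChlH, the large subunit of the magnesium chelatase that commits porphyrin to chlorophyll, had 143 and 169 TPM in seedlings, against 36.9, 37.8, 43.2 and 46.2 TPM in plumules (log2 difference 1.90). OsPorA, the protochlorophyllide oxidoreductase known for its abundance in dark-grown shoots, had 944 and 802 TPM in seedlings, against 554, 513, 551 and 503 TPM in plumules, the light and dark plumules lying within one another's range (log2 difference 0.71). HEMA1, which makes the first committed precursor, was 1.38 higher on the log2 scale, OsCRD1, which closes the fifth ring of chlorophyll, 1.28 higher, and OsDVR, a divinyl reductase, 1.63 higher. OsCAO2, a chlorophyllide a oxygenase gene, was lower by a log2 difference of −1.42.

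Of 16 photorespiration genes, which recycle the product of oxygen fixation by Rubisco, 10 were higher, 1 was lower and 5 were not called (median log2 difference 0.51). OsGLO1, a glycolate oxidase of the peroxisome, had 469 and 473 TPM in seedlings, against 22.0, 19.2, 28.1 and 29.1 TPM in plumules (log2 difference 4.22). GLO4, another glycolate oxidase, and OsHPR1, hydroxypyruvate reductase, followed with log2 differences of 3.81 and 3.67. OsSHM2, a serine hydroxymethyltransferase, which also serves one-carbon metabolism, had 408 and 404 TPM in seedlings, against 398, 387, 399 and 387 TPM in plumules. Its groups lay next to each other and it was not called (log2 difference 0.05, adjusted p = 0.38), though it was with edgeR (0.15, adjusted p = 0.0304).

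Photoreceptor and light signalling genes were higher in 21 of 33 cases and lower in 7, with a median log2 difference of 0.44. PHYA, the phytochrome that accumulates in darkness, was lower, with 14.5 and 21.7 TPM in seedlings, against 44.2, 48.7, 39.5 and 40.7 TPM in plumules (log2 difference −1.24), and the light-grown plumules were not below the dark ones. PHYB and PHYC, the light-stable phytochromes, were 0.34 and 0.36 higher on the log2 scale, and the blue-light receptors OsCRY1a and OsCRY1b 0.97 and 1.14 higher. The B-box zinc finger genes gave the steepest differences in the list. OsBBX17 had 99.5 and 80.1 TPM in seedlings, against 6.51, 6.26, 8.83 and 6.66 TPM in plumules (log2 difference 3.50), with OsBBX1 at 2.99, OsBBX12 at 2.56 and, in the other direction, OsBBX21 at −1.80. Of 14 circadian clock genes 7 were higher and 4 lower. GI, which peaks late in the day in plants, had 256 and 329 TPM in seedlings, against 98.4, 103, 106 and 111 TPM in plumules (log2 difference 1.46), and the pseudo-response regulators and partners OsPRR73, OsPRR95, OsPCL1 and OsPRR1 were 1.30, 1.17, 1.14 and 0.89 higher on the log2 scale. The morning gene LHY had 1.11 and 1.97 TPM in seedlings, against 4.50, 5.39, 6.21 and 7.03 TPM in plumules (log2 difference −1.42), and CCA1, of the same type, and ELF4_chr.11, an evening gene, were also lower (−0.93 and −0.67). The part of the hour of collection in these values was not tested.

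Ribosomal protein genes were lower in seedlings as a block. The list was matched by symbol, and genes for cytosolic and plastid ribosomes were not separated. Of 82 ribosomal protein genes tested, 75 were lower, 38 of them by at least 2-fold, 3 were higher and 4 were not called, with a median log2 difference of −0.96. Their summed level averaged 21510 TPM in seedlings and 41050 TPM in plumules. OsRPL36.2 had 50.9 and 48.7 TPM in seedlings, against 152, 152, 144 and 166 TPM in plumules (log2 difference −1.60). One of the 3 higher genes, OsRPL21 (Os02g0259600), had 181 and 198 TPM in seedlings, against 75.3, 74.2, 75.1 and 78.0 TPM in plumules (log2 difference 1.31), and in both genes the groups were well apart. TPM is a share of a fixed total, so the sum of the photosynthesis transcripts and that of all others move against each other by construction. Scaling all libraries to equal medians or by the trimmed mean of M values (TMM) left the ribosomal protein counts within 1.5 times of these.

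Cell cycle and DNA replication genes went the same way, with 44 of 50 tested genes lower and 3 higher. Their differences were modest (median −0.75, only 5 of the 44 by at least 2-fold). OsPCNA, the sliding clamp of DNA polymerase, had 90.3 and 95.9 TPM in seedlings, against 186, 194, 199 and 199 TPM in plumules (log2 difference −1.05). CDKB2, a mitotic cyclin-dependent kinase, had 47.3 and 52.6 TPM in seedlings, against 96.2, 99.2, 104 and 103 TPM in plumules (log2 difference −0.99). OsORC6, of the origin recognition complex, was lower by a log2 difference of −1.23 and OsMCM4, of the replicative helicase, by −0.66. The higher genes included a D-type cyclin, CycD5 (Os03g0617500), with 10.8 and 9.46 TPM in seedlings, against 3.60, 2.81, 2.94 and 2.46 TPM in plumules. Of 5 tested KNOX homeobox genes, which mark the shoot meristem, 4 were lower. OSH6 had 3.96 and 3.60 TPM in seedlings, against 13.6, 12.4, 13.0 and 11.5 TPM in plumules (log2 difference −1.51), OSH15 and OSH1 differed by −1.29 and −0.48, and OSH42 was the exception with 35.3 and 37.0 TPM in seedlings, against 9.21, 11.0, 12.1 and 10.1 TPM in plumules (log2 difference 1.68).

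Cell wall families moved in both directions. Among 24 tested expansins, proteins that loosen the wall during growth, 8 were higher and 12 lower (median −0.28). OsEXP4 had 198 and 180 TPM in seedlings, against 892, 884, 917 and 895 TPM in plumules (log2 difference −2.24), and OsEXP1 (Os04g0228400) had 33.4 and 30.0 TPM in seedlings, against 560, 546, 439 and 402 TPM in plumules (−3.89). OsEXPB2, a beta-expansin, ran the other way with 116 and 97.2 TPM in seedlings, against 6.09, 5.82, 7.63 and 7.88 TPM in plumules (3.78). For all 3 the groups were far apart. Without either seedling library fewer expansins were called higher. Genes under 1 TPM in plumules then missed the minimum of 2 libraries. The drop was not only due to this minimum. OsEXPA16 was still tested and lost its call, with log2 differences of 0.35 without replicate 1 and 0.36 without replicate 2. Of 9 cellulose synthases 4 were lower and 2 higher. OsCesA1, OsCesA8, OsCesA5 and OsCesA6, of the primary wall, differed by −0.65, −0.67, −0.50 and −0.75 on the log2 scale, while the secondary wall genes OsCesA4 and CESA7 were higher. OsCesA4 had 75.5 and 80.9 TPM in seedlings, against 42.1, 42.6, 40.1 and 39.8 TPM in plumules (0.91), and CESA7 had 89.9 and 75.0 TPM in seedlings, against 41.6, 39.4, 39.8 and 35.6 TPM in plumules (1.05).

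Genes matched by the symbols of phenylpropanoid and lignin enzymes were higher in 29 of 51 cases, 15 by at least 2-fold, and lower in 15 (median 0.43). A match by symbol can take in unrelated genes, and OsCCR4b was among the members. Phenylalanine ammonia-lyase, the entry enzyme, encoded by the OsPAL gene Os02g0626100, had 1356 and 1154 TPM in seedlings, against 570, 540, 531 and 508 TPM in plumules (log2 difference 1.22). The 4-coumarate:CoA ligase gene 4CL3 was 1.63 higher on the log2 scale, and the cinnamyl alcohol dehydrogenase genes OsCAD8C and OsCAD8D were 2.13 and 3.02 higher, while OsCAD6 was lower (−1.41). Class III peroxidases, secreted enzymes that oxidise wall phenolics, were higher in 46 of 78 cases and lower in 14 (median 0.48). The gene prx29 had 248 and 210 TPM in seedlings, against a single read in all 4 plumule libraries together, 0.0732 TPM in dark 1 and 0 in the other three. Its fitted log2 difference of 7.81 depends on the pseudocount of 1. In the other direction prx69 had 7.08 and 5.79 TPM in seedlings, against 47.5, 42.4, 52.1 and 48.5 TPM in plumules (log2 difference −2.71).

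Transcripts for nitrate reduction were higher in seedlings and those of an asparagine synthetase lower. NiR, nitrite reductase of the plastid, had 267 and 238 TPM in seedlings, against 48.9, 54.7, 49.8 and 50.4 TPM in plumules (log2 difference 2.29), and the nitrate reductase gene OsNIA1 was 1.76 higher. ASN1, which makes the transport amino acid asparagine, had 65.8 and 64.6 TPM in seedlings, against 393, 368, 449 and 437 TPM in plumules (log2 difference −2.64). Over the 28 tested nitrogen genes 18 were higher and 7 lower (median 0.74), among them the ammonium transporter gene OsAMT2 at 3.24 and the nitrate transporter family genes OsNRT1.5B at 2.37 and OsNRT1.3B at −1.89. Aquaporins, the water channels, were mixed, with 11 of 28 higher and 8 lower. OsTIP4 (Os05g0231700), a vacuolar channel, had 672 and 575 TPM in seedlings, against 41.5, 45.9, 41.0 and 38.8 TPM in plumules (log2 difference 3.87), while OsTIP1 (Os03g0146100), the most abundant, had 4194 and 3371 TPM in seedlings, against 4101, 3549, 3741 and 3220 TPM in plumules, overlapped and was not called (0.05). Of the 2 plasma membrane genes that share the symbol OsPIP2 and were among the largest changes, Os09g0541000 had 667 and 561 TPM in seedlings, against 0.909, 1.60, 2.11 and 2.76 TPM in plumules (7.79, adjusted p = 9.9e-15), and Os03g0861300 had 0 and 0.0859 TPM in seedlings, a single read, against 26.7, 19.8, 28.6 and 23.7 TPM in plumules.

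Hormone genes moved in both directions. Of 97 auxin response genes 49 were lower and 29 higher (median −0.22). OsSAUR32, of the small auxin-induced family tied to elongation, had 0 and 0.306 TPM in seedlings, a single read, against 18.9, 18.2, 16.4 and 16.2 TPM in plumules, and its fitted log2 difference of −4.01 depends on the pseudocount. IAA11, an auxin response repressor, was lower (−2.17), while OsSAUR58 and OsSAUR19 were 2.90 and 2.75 higher. Of 15 gibberellin metabolism genes 9 were higher and 2 lower (median 0.45). OsGA20ox7, named for the oxidase step that makes active gibberellin precursors, had 15.8 and 11.6 TPM in seedlings, against 0.368, 0.573, 0.637 and 0.484 TPM in plumules (3.27). GA2OX4, named for the step that inactivates gibberellin, and D18, which makes the active hormone, were lower by −2.08 and −0.52.

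Lists for seed and root tissue served to check the samples against their labels. Of 42 storage protein genes only 3 reached the minimum to be tested, 24 had no read in any of the 6 libraries, and their sum averaged 7.78 TPM in seedlings and 6.34 TPM in plumules. The alpha-amylases that mobilise starch in germinating grain were near the detection limit, with 4 of 9 tested and a sum of 12.4 TPM in seedlings and 4.50 TPM in plumules. 3 of these were higher (AMY1A 2.26, Amy2A 1.68 and Amy3D/E 1.14 on the log2 scale), but without either seedling library only 1 was, because the others then missed the TPM minimum. Late embryogenesis abundant and oil body genes, made in maturing seeds and under drought, were lower in 15 of 23 cases and higher in 7 (median −0.85). Their sum averaged 489 TPM in seedlings and 473 TPM in plumules. OsLEA7, the most abundant, had 89.5 and 86.3 TPM in seedlings, against 218, 218, 210 and 210 TPM in plumules (−1.27). The next most abundant members, OsLEA24, LEA8 and Rab16A, were higher (1.40, 1.01 and 0.66). Rab16A had 45.1 and 35.1 TPM in seedlings, against 29.8, 32.8, 22.6 and 17.1 TPM in plumules. In the limma test against light plumules alone it was not called (0.34, adjusted p = 0.112). The list also held wsi76 (Os07g0687900), a water-stress gene for a galactinol synthase, with 34.0 and 31.2 TPM in seedlings, against 0.991, 1.22, 0.837 and 0.978 TPM in plumules (4.07). Genes named OsEnS were higher in 7 and lower in 11 of 20 cases, with 7 lower without seedling replicate 1. Of 4 root markers tested, RCc2 was the most abundant, with 122 and 96.1 TPM in seedlings, against 480, 409, 448 and 377 TPM in plumules (−1.97), and RCc3 was also lower (−0.80). LSI1, the silicon channel of roots, was 0.97 higher and NAR2.1, a partner of nitrate transporters, 1.00 higher at no more than 1.39 TPM in any library. Root RNA was therefore not shown absent from either group, and its part in the other differences was not tested.

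Defence gene families held many of the largest changes, in both directions. The 5 lists of this and the next 2 paragraphs were added after values were seen, so their counts describe and do not test. Thionins, small antimicrobial peptides rich in cysteine, summed to an average of 129 TPM in seedlings and 25450 TPM in plumules. Of 11 tested 8 were lower, 6 of them by at least 2-fold, and 2 were higher. Osthi7 (Os06g0514100) had 13.8 and 17.6 TPM in seedlings, against 8328, 9965, 7173 and 8362 TPM in plumules (log2 difference −8.99, SE 0.12, adjusted p = 3.4e-16). OsTHI3, OsTHI9 and OsTHI6 lie close by on chromosome 6 by their identifiers and had log2 differences of −8.74, −8.69 and −7.76. These neighbours are near-identical copies, so how the reads divide between them is uncertain. OsTHI26, elsewhere, was not called (−0.15, adjusted p = 0.10), though without seedling replicate 1 it was lower (−0.29, adjusted p = 0.00696).

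LOX-L2, a lipoxygenase, which oxidises fatty acids, and OsDT11, which encodes a short cysteine-rich peptide, went with the thionins. LOX-L2 had 4.46 and 4.94 TPM in seedlings, against 1645, 1559, 1735 and 1678 TPM in plumules (log2 difference −8.18, SE 0.10, adjusted p = 9.8e-17). OsDT11, the most abundant plumule transcript, had 120 and 126 TPM in seedlings, against 18840, 19190, 16583 and 16335 TPM in plumules (−7.16, SE 0.07, adjusted p = 2.2e-17). In both genes all plumule libraries stood far above both seedling libraries. The lipid transfer protein gene nsLTP2 had 0.694 and 0.992 TPM in seedlings, against 98.9, 103, 70.8 and 66.7 TPM in plumules (−5.52), with light plumules above dark ones. Bowman-Birk inhibitors, which block trypsin-like proteases, split by subgroup. The genes RBBI3-1, RBBI3-2 and RBBI3-3 were lower, RBBI3-1 with 788 and 707 TPM in seedlings, against 5849, 6010, 5805 and 5869 TPM in plumules (−2.98), and RBBI3-3 with 286 and 262 TPM in seedlings, against 4990, 5165, 4559 and 4552 TPM in plumules (−4.13). All 4 others were higher, led by RBBI2-2 with 249 and 215 TPM in seedlings, against 5.08, 5.59, 6.33 and 5.73 TPM in plumules (5.12).

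Chitinases, which cut the chitin of fungal walls, were higher in 11 of 13 cases and lower in 2, yet their summed level averaged 1259 TPM in seedlings and 2534 TPM in plumules. The sum rested on Cht9 (Os05g0399400), with 240 and 192 TPM in seedlings, against 2654, 2844, 2171 and 2155 TPM in plumules (log2 difference −3.50). Cht5 (Os04g0494100), by contrast, had 121 and 124 TPM in seedlings, against 0.853, 0.708, 0.620 and 1.15 TPM in plumules (6.08), with Oschib1 at 5.39, Cht3 at 4.74, Cht1 at 4.66 and Cht8 at 4.34. Without either seedling library 6 chitinases were called higher, since those under 1 TPM in plumules were then not tested. Pathogenesis-related genes were higher in 15 of 18 cases and lower in 1 (median 2.90). OsPR4, of a family that binds chitin, had 149 and 192 TPM in seedlings, against 10.7, 7.32, 7.05 and 5.70 TPM in plumules (4.32), and the OsPR2 gene Os01g0940700, a beta-glucanase, had 77.7 and 71.9 TPM in seedlings, against 0.605, 0.628, 0.559 and 0.758 TPM in plumules (5.53). All 5 tested DREB1 genes, transcription factors of the cold response, were higher, and 2 were without either seedling library, for the same reason as the chitinases. OsDREB1B had 80.5 and 73.9 TPM in seedlings, against 1.78, 0.819, 1.03 and 0.222 TPM in plumules (5.38), and OsDREB1E had 38.4 and 33.3 TPM in seedlings, against 0.396, 0.137, 0.961 and 0.298 TPM in plumules (4.70).

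**Figure D3:**
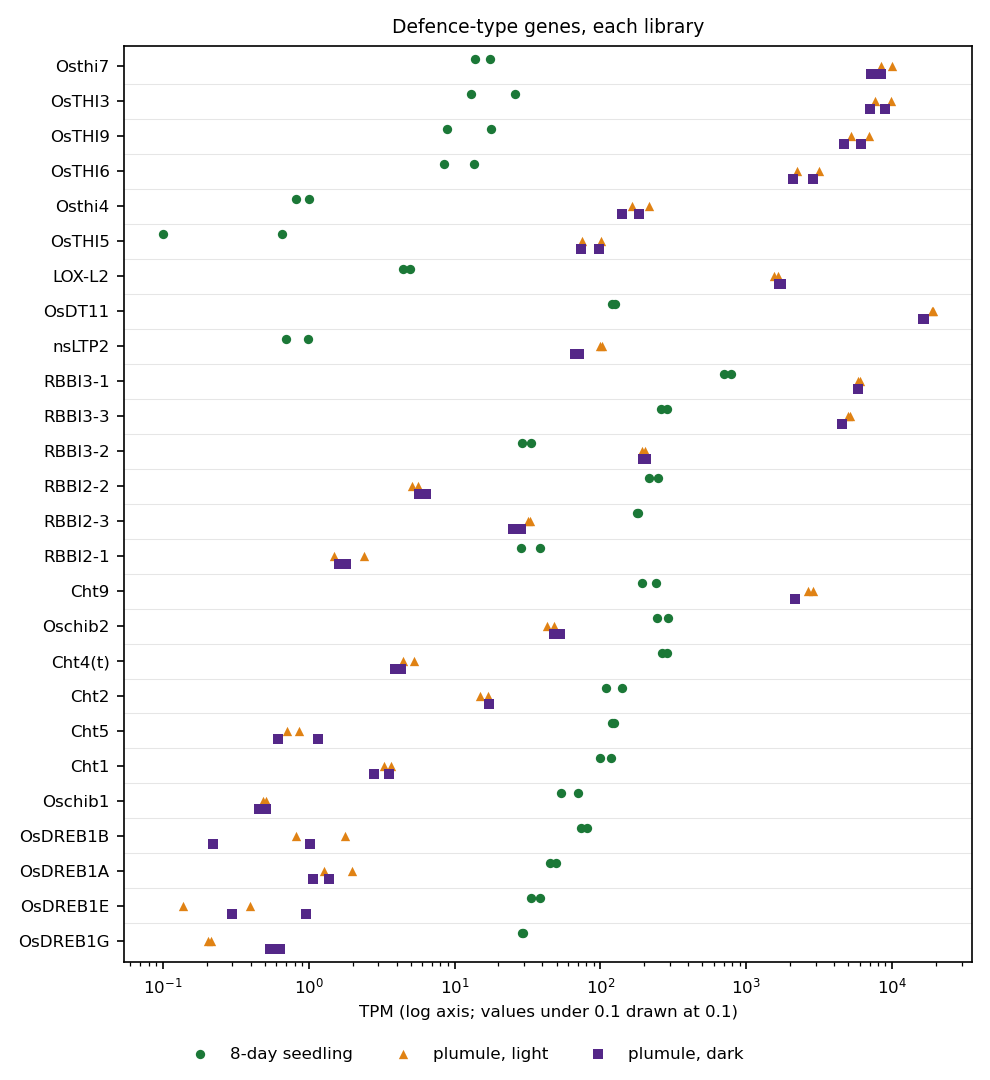
TPM of each library on a log axis for thionins, LOX-L2, OsDT11, nsLTP2, Bowman-Birk inhibitors, chitinases and DREB1 genes, 1 gene per line, with points for 8-day seedlings, light plumules and dark plumules, values under 0.1 TPM being drawn at 0.1. Thionins, LOX-L2, OsDT11 and Cht9 have plumule points far to the right of seedling points, and RBBI2-2, Cht5 and OsDREB1B show the opposite order.

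The other large rises came from several families. OsRMC, a secreted cysteine-rich protein named for a root curling phenotype, had 1065 and 858 TPM in seedlings, against 0.801, 0.462, 1.20 and 0.802 TPM in plumules (log2 difference 9.06, SE 0.17, adjusted p = 1.4e-14). GLP8-12, a germin-like protein of the cell wall, had 480 and 636 TPM in seedlings, against 0.263, 0.0909, 0.0910 and 0.198 TPM in plumules (8.90, SE 0.12, adjusted p = 1.6e-16). UspA, a universal stress protein gene, had 242 and 195 TPM in seedlings, against 1.77, 2.35, 1.77 and 1.60 TPM in plumules (6.25). In all 3 genes every plumule library was close to the bottom of the scale. Surface lipid genes were mixed, with 40 of 77 lipid transfer and wax genes higher and 23 lower (median 0.34). OsLTP1.17 (Os12g0115000), a lipid transfer protein, had 3445 and 2726 TPM in seedlings, against 443, 415, 394 and 353 TPM in plumules (2.93), while LTP1 had 1032 and 1042 TPM in seedlings, against 2544, 2478, 2061 and 1958 TPM in plumules (−1.11). OsGL1-8 (Os07g0101500), a wax gene of the Glossy1 family, had 29.2 and 36.9 TPM in seedlings, against 415, 416, 433 and 414 TPM in plumules (−3.63). Metallothioneins, which bind metal ions through cysteine, were higher in 8 of 11 cases and lower in 2 (median 0.93). MT1A had 550 and 499 TPM in seedlings, against 30.6, 23.7, 37.2 and 34.7 TPM in plumules (4.03), and OsMT3a had 1396 and 1541 TPM in seedlings, against 155, 163, 196 and 197 TPM in plumules (3.05).

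The m6A data were read from m6A-SAC-seq, in which an enzyme adds an allyl group to m6A so that reverse transcription leaves a mutation there, and the mutation rate, calibrated with spiked-in probes, gives the fraction of transcripts methylated at each site. Only 1 combined fraction per tissue was deposited, so no difference between seedlings and plumules at a site has a replicate error or a test. The difference between light and dark plumules served as the yardstick. It holds any effect of growth light on m6A and is not a replicate error. The paper reports a pervasive increase of m6A levels in light plumules against dark ones, by a comparison that was not repeated here. Depth at the compared sites had a median of 81 reads in seedlings, against 89 in light and 87 in dark plumules. The mean fraction was 0.247 in seedlings, against 0.236 in light plumules and 0.233 in dark plumules. Seedlings thus stood 0.0122 above the mean of the plumules, and light plumules 0.00313 above dark ones. The median difference was 0.000953, close to 0. Whole reads behind each site do not give a counting interval for a calibrated fraction, so none is printed.

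Site by site, seedlings were at least 0.2 above the plumule mean at 13267 sites (9.43%) and at least 0.2 below it at 10874 (7.73%). Light plumules were at least 0.2 above dark ones at 11228 sites and below at 10673. Only 3 genes were called between this pair of tissues. Those counts compare single fractions, while the seedling counts above use the plumule mean, so the comparison is not like for like. Against each plumule tissue alone, seedlings were that far above at 14284 (light) and 14576 (dark) sites and below at 12247 and 11679. All of these were above the counts between light and dark plumules. The correlation across sites was 0.640 with light and 0.644 with dark plumules, against 0.707 between the plumules. At the 5777 sites read at least 500 times in all 3 tissues the standard deviation of the difference shrank to 0.0852 and 0.0872 between seedlings and each plumule, against 0.0636 between the plumules, and the mean difference kept its size, between 0.0116 and 0.0123 over the depth minimums tried.

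An even comparison asks how often each of the 3 tissues was the odd one out, at least 0.2 above or at least 0.2 below both others. This count was added after the other values were seen. Seedlings were above both plumules at 6.39% of sites and below both at 3.84%. Light plumules were above both others at 4.37% and below at 3.07%, and dark plumules at 4.08% and 3.17%. At 500 reads or more, seedlings were above both at 66 sites and below both at 44 of 5777, light plumules at 21 and 17, and dark plumules at 18 and 34. More of the compared sites carried the detection flag in seedlings (59389) than in light (54406) or dark plumules (50572). Among the 110824 sites that were also detected in at least 1 of the other 5 tissues of the series, seedlings were above both plumules at 5492 and below both at 3812, against 3723 and 3316 for light and 3659 and 3397 for dark plumules.

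**Figure D4:**
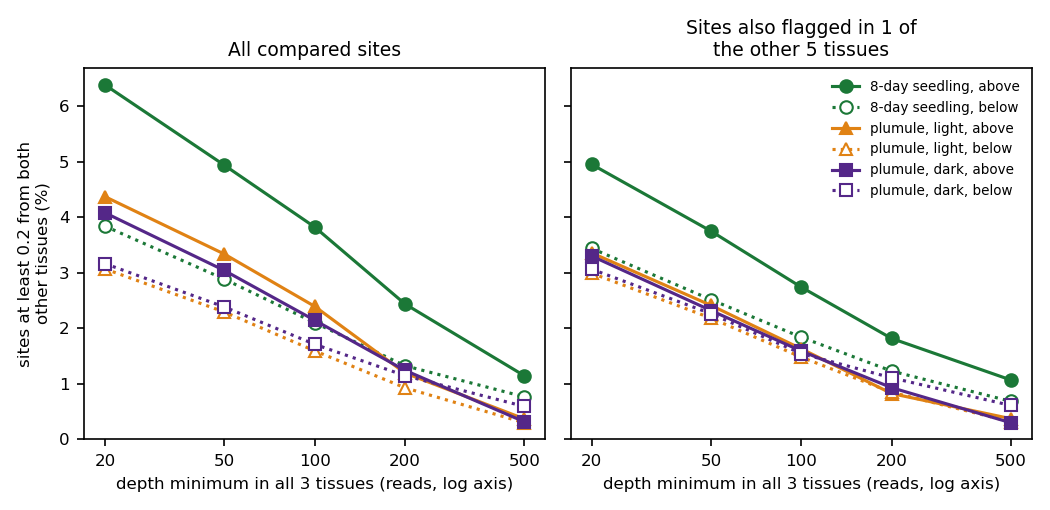
Percent of sites at which 1 tissue was at least 0.2 above (upper lines) or below both others, on the y axis, against the depth minimum of 20 to 500 reads on the x axis, for all compared sites on the left and for sites detected in at least 1 of the other 5 tissues on the right. The share falls with depth for all 3 tissues, and the line of seedlings above both plumules is the highest at each minimum, with 6.39% at 20 reads over all sites.

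The mean in seedlings was above that in plumules in the transcript regions and motifs given here, by amounts that depended on centring. With the fractions shifted so that seedlings and plumules had equal medians the overall difference was 0.00771 and that in coding sequence 0.00220. The light minus dark differences given here were not shifted in this way, so the shifted values are not set against them. In 3′ UTRs, where m6A is known to gather, 48099 sites averaged 0.335 in seedlings and 0.317 in plumules, a difference of 0.0172, against 0.00431 between light and dark plumules. In coding sequence (CDS), 56045 sites averaged 0.171 in seedlings and 0.164 in plumules (0.00667, against 0.00246 between light and dark). The 3455 sites in 5′ UTRs averaged 0.226 in seedlings and 0.213 in plumules. By the 3 bases centred on the methylated adenine, 48451 GAC sites averaged 0.209 in seedlings and 0.199 in plumules, 21339 AAC sites averaged 0.368 in seedlings and 0.350 in plumules, and 29383 GAT sites averaged 0.146 in seedlings and 0.136 in plumules. The scatter differed more than the means. Seedlings were at least 0.2 above plumules at 3.91% and below at 2.32% of GAC sites. The shares were 18.5% and 15.2% at AAC sites and 1.81% and 0.616% at GAT sites. Light and dark plumules also differed unevenly by motif. Light plumules were that far above and below dark ones at 1417 and 1351 GAC, 3573 and 3349 AAC and 332 and 289 GAT sites. In mitochondrial transcripts 58 sites differed by −0.0359 on average and in plastid transcripts 82 sites by 0.0230.

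Ranked over all motifs, 198 sites tied at a difference of exactly 1 in favour of seedlings and 18 at 1 in favour of plumules, so no order among them could be given. The 8 taken from each tie by genome position alone all lay outside RAC and GAT. An example is the site at position 4138702 of chromosome 1 (IRGSP-1.0), in the CDS of SSG4, at 1.0 in seedlings, against 0 in light and 0 in dark plumules at depths of 67, 61 and 72. Of the sites differing by at least 0.5, 90.2% were at exactly 0 or 1 in a tissue, against 29.0% of all compared sites, and 77.6% lay outside RAC and GAT, against 29.5% of all. GAC sites were therefore ranked by themselves, a choice made after these values were seen. The scatter between light and dark plumules was lower at GAC than at AAC sites. It was lower still at GAT sites, which were not ranked by themselves. Of the GAC sites meeting the conditions on depth, detection and plumule spread, 244 were at least 0.2 higher and 86 at least 0.2 lower in seedlings, out of 8097 and 3510 eligible sites. The conditions asked for detection in 1 tissue for a rise and in 2 for a fall, so the counts are not like for like.

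The GAC sites described next are given with their 5-base context as listed, written 5′ to 3′ with the methylated adenine in capitals. They are those with a gene symbol that stood highest among the 8 largest rises and the 8 largest falls, and some sites in genes without a symbol differed by more than those shown.
OsGL1-8: ggAct
OsOSCA4.1: agAca
FAH2: ggAca
OsFbox493: agAca
OsLTPG13: agAct
OsMPK14: agAca

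The wax gene OsGL1-8 headed this ranking, at position 90416 of chromosome 7 (plus strand, 3′ UTR), with a fraction of 0.774 in seedlings, against 0.160 in light and 0.218 in dark plumules at depths of 77, 1025 and 916. A second 3′ UTR site of the same gene, at 90280, stood at 0.432 in seedlings, against 0.0982 in light and 0.0983 in dark plumules. Its CDS sites did not follow. The site at 90165 stood at 0.211 in seedlings, against 0.238 in light and 0.206 in dark plumules, and that at 89770 at 0.109 in seedlings, against 0.115 and 0.102, at depths of 505, 5506 and 5100. Both plumules lay close together at all 4 sites. The transcript itself had a log2 difference of −3.63, as given above.

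The site of OsOSCA4.1, a member of the calcium-permeable OSCA channel family, lies at position 2067426 of chromosome 3 (plus strand, CDS), with 0.842 in seedlings, against 0.307 in light and 0.251 in dark plumules at depths of 61, 60 and 58. That of FAH2, at 32378267 of chromosome 3 (plus strand, 3′ UTR), stood at 0.740 in seedlings, against 0.273 in light and 0.327 in dark plumules at depths of 127, 415 and 446. Sites in the unnamed genes Os11g0102200 and Os12g0101800 had identical values (0.905 in seedlings, against 0.482 in light and 0.478 in dark plumules) and count as 1, since reads cannot be told apart between duplicated loci. Among the sites lower in seedlings, that of OsFbox493, an F-box protein gene, at 19243240 of chromosome 9 (minus strand, CDS), stood at 0.0606 in seedlings, against 0.461 in light and 0.502 in dark plumules at depths of 121, 72 and 58. The 3′ UTR site of OsLTPG13, a lipid transfer protein gene, at 28620246 of chromosome 6 (plus strand), stood at 0.391 in seedlings, against 0.780 in light and 0.792 in dark plumules. The 3′ UTR site of OsMPK14, a mitogen-activated protein kinase gene, at 2517535 of chromosome 5 (plus strand), stood at 0.524 in seedlings, against 0.853 in light and 0.932 in dark plumules.

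**Figure D5:**
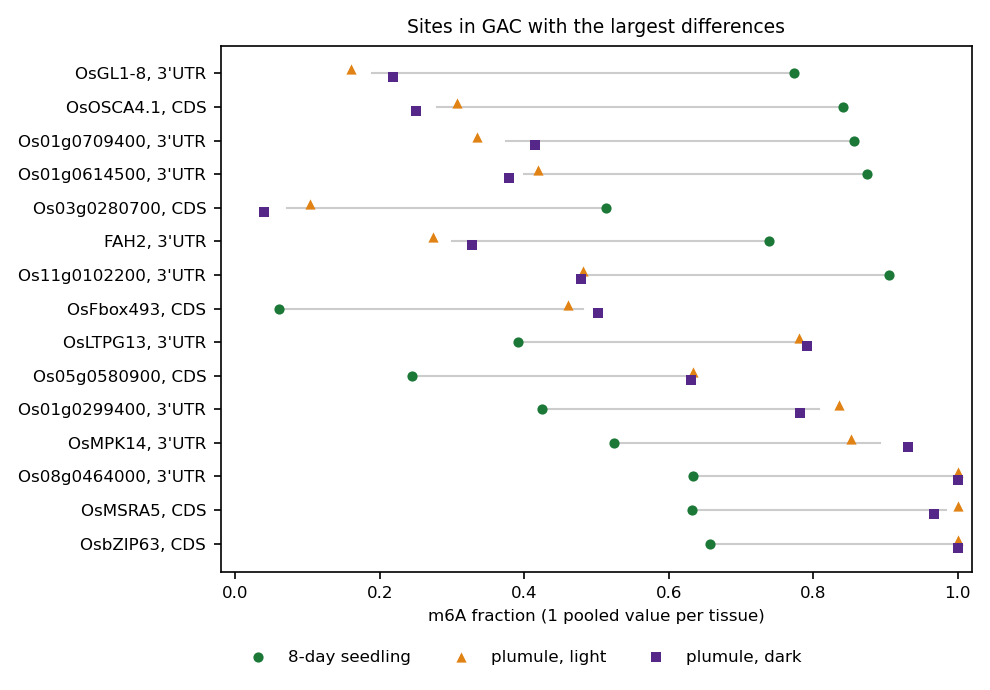
m6A fraction from 0 to 1 on the x axis in 8-day seedlings, light plumules and dark plumules for the 15 GAC sites with the largest rises and falls, 1 site per line, named by gene. Each point is the single combined value of a tissue, and the plumule points lie within 0.1 of each other by the rule of choice, while the seedling point stands apart, as for OsGL1-8 at 0.774.

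Sites in the genes described above differed in both directions. The CAB2R site in the 5′ UTR (agAca, position 23607431 of chromosome 1) stood at 0.0921 in seedlings, against 0.0907 in light and 0.0832 in dark plumules, at depths of 19789, 1342 and 1136. The Lhcb1.1 site in the 5′ UTR (agAca, position 30031026) stood at 0.312 in seedlings, against 0.255 and 0.248. The 21 sites of 9 light-harvesting genes averaged 0.175 in seedlings and 0.153 in plumules, with a median difference of −0.000799, and 1 site was at least 0.2 higher. The 95 sites of Rubisco and Calvin cycle genes averaged 0.254 in seedlings and 0.281 in plumules, with a median difference of 0. Of these, 3 were at least 0.2 higher and 8 lower, against 5 and 5 between light and dark. Ribosomal protein genes, whose transcripts were lower, had 605 sites averaging 0.318 in seedlings and 0.296 in plumules, with a median difference of 0.0154, 36 at least 0.2 higher and 22 lower, against 12 and 20 between light and dark. The RPS4 site in the CDS (agAct, position 17715892 of chromosome 3) was read 14719, 28745 and 27500 times and stood at 0.0966 in seedlings, against 0.0985 and 0.0968. Photoreceptor and light signalling genes had 251 sites, 27 at least 0.2 higher and 14 lower, against 20 and 20 between light and dark. Among the defence lists, the 28 Bowman-Birk inhibitor sites differed by −0.123 on average but by −0.00826 in the median. Of these, 4 were at least 0.2 higher and 7 lower, against 3 and 2 between light and dark. The 19 pathogenesis-related sites differed by −0.0731 (median −0.0557), with 1 higher and 3 lower, against 3 and 3. The 9 chitinase sites differed by −0.0619 (median −0.015), with 1 higher and 1 lower, against 2 and 2. The 17 thionin sites differed by 0.0935 (median 0.0475), with 2 higher and 0 lower, against 1 and 2. The Osthi7 site at position 18726732 of chromosome 6 (agAct) stood at 0.112 in seedlings, against 0.0565 and 0.0554. It was read deeply only in plumules, with depths of 122, 54110 and 56583. How reads divide between the thionin copies is uncertain, as given above. The RBBI3-1 site at 1347811 of chromosome 1 (agAtt), read deeply in all tissues compared, stood at 0.0889, against 0.0795 and 0.0805. Its depths were 15668, 154054 and 157488.

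Across genes, the rank correlation of methylation and expression differences was near 0 at the depth minimum of 20 (Spearman's rho 0.00124 over 15999 genes, as a description). It was 0.114 over 20098 genes with no depth minimum and −0.0494 over 12220 genes at a minimum of 50. Genes at least 2-fold higher in seedlings held 8123 sites with a mean difference of 0.0113, and 47.1% of these 3589 genes had a compared site. Genes at least 2-fold lower held 6997 sites with a mean difference of 0.0184, averaging 0.258 in seedlings and 0.239 in plumules, and 64.2% of the 1562 genes had a site. The remaining genes held 112621 sites with a mean difference of 0.0116, and 70.45% of these 18891 genes had a site. A compared site needed at least 20 reads in seedlings, light plumules and dark plumules alike. Genes with few reads in any of these tissues could therefore have no compared site. The part of this depth minimum in the shares of genes with a site was not tested. Per gene, over 4153 genes with at least 5 GAC, AAC or GAT sites read 50 times or more and detected in another tissue, the mean over the sites of a gene was at least 0.1 above plumules in 105 genes and below in 28, while light plumules were that far above dark ones in 72 genes and below in 50. OsABCI4, a transporter family gene, averaged 0.488 in seedlings and 0.229 in plumules with 4 of 5 sites above the plumule mean, and OsPP2C03, a protein phosphatase 2C gene, averaged 0.321 in seedlings and 0.151 in plumules with 5 of 5. NALP1 went the other way, averaging 0.255 in seedlings and 0.389 in plumules, with 2 of 5 sites above the plumule mean.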

How the data were processed

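Messenger RNA of each tissue was sequenced untreated for expression and after m6A-SAC-seq treatment for m6A. The authors deposited TPM per gene and untreated library. No source used here names the aligner or the counter. For m6A, the authors deposited, per m6A site and tissue, 1 fraction calibrated with spike-in probes, a read depth (a whole-number count) and a detection flag, on IRGSP-1.0 (submitters' processing notes). The way replicates were combined into this fraction was likewise not stated.

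Expression was tested with limma (3.58.1, R 4.3.3) on log2(TPM + 1), with trended and robust variances. All 16 untreated libraries shared 1 estimate of the spread, and the contrast was seedling minus the mean of light and dark plumules, two-sided, with Benjamini-Hochberg adjustment over 24042 genes and a threshold of 0.05. A log2 difference on this scale understates the change of low genes. Whole reads could be recovered from TPM and gene length (100% of values up to 100 reads within 0.1 read of a whole number, 12856679 to 15516038 reads per library), and edgeR (4.0.16) on those reads called 8682 genes higher and 8154 lower. DESeq2 (1.42.0) was a further alternative. Sites needed a depth of 20 in all 3 tissues, were described in Python 3.11.15 (pandas 2.3.3) and were not tested. Scripts were checked on data with known answers.

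Named genes were the 12 largest rises and falls among called genes without overlap averaging 20 TPM or more, over all genes and, added later, over genes with a symbol, the 5 most abundant per group, members of 30 lists matched by symbol, and sites of depth 50 or more with plumules within 0.1. Examples within lists beyond the 4 most abundant were chosen after their values were seen. The members and lists were chosen with earlier results of these data known, and 5 lists, the 2-fold rule, the GAC ranking and the odd-one-out counts were added after values were seen. Libraries of other tissues were used only for the spread and for site detection.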

Additional observations from a re-analysis of the deposited data

Results flagged for a closer look

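Within the 4 plumule libraries, 4 of 145 genes checked had 1 library far from the other three by Dixon's criterion, which chance exceeds in about 1 of 20 groups. These were prx29 at 0.0732 TPM in dark replicate 1, where the others were at 0, AMY1A at 0 TPM in light replicate 2, GA20OX1 at 14.8 TPM in dark replicate 1 and NAR2.1 at 0.190 TPM in light replicate 2.

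Light and dark plumules, taken as 1 group above, differed in 3 genes by the limma test of that difference. A tRNA-Gly gene (ENSRNA049446030) had a light minus dark log2 difference of −1.55 (adjusted p = 0.0155), with 0 TPM in both seedling libraries and both light plumule libraries and 1.28 and 2.77 TPM in dark plumules. For a tRNA-Ala gene (ENSRNA049449355) the difference was −1.84 (adjusted p = 0.0161), with 2.48 and 2.69 TPM in dark plumules. MIR1428 (ENSRNA049472788) gave −0.94 (adjusted p = 0.0161), with 0.666 and 0.762 TPM in seedlings, 0.703 and 0.730 TPM in light plumules and 2.19 and 2.38 TPM in dark plumules.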

How the results depend on the processing

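Of 806 genes named or in a list, 694 were called. Of these, 610 kept the call and the direction in each of the 21 settings that tested them, among them 12 of 12 rises and 12 of 12 falls. A gene that missed the TPM minimum in a setting was not tested there and not counted as lost. For example, prx29 was not tested without either seedling library. No gene reversed, and 66 lost a call without 1 library while still tested. Calls over all genes stayed within 1.5 times of 7754 higher and 9263 lower, for example 8348 and 8463 with TMM scaling, 7219 and 10499 with equal medians, 8087 and 7293 with DESeq2, and 6209 to 7571 and 7451 to 9455 without 1 library. With a pseudocount of 5 the genes at least 2-fold different numbered 2049 higher and 808 lower. With equal medians 3 photorespiration genes were lower. A minimum of 5 TPM, under which fewer genes were tested, left 0 alpha-amylases higher, 6 seed maturation genes lower, 4 OsEnS genes higher and 1 lower, 4 expansins, 11 nitrogen genes, 5 gibberellin genes and 0 thionins higher. Without 1 library the higher counts ran from 1 to 3 for alpha-amylases, 4 to 8 for expansins, 6 to 11 for chitinases and 2 to 5 for DREB1 genes, and the lower count from 7 to 11 for OsEnS genes.

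With the replicate number as a block, 7893 genes were higher and 9535 lower. Deviations of libraries with the same number correlated at 0.265, 0.242 and 0.193 between the tissues, but with only 2 numbers per tissue they share no more than a number.

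Sites at least 0.2 higher and lower made up 6.25% and 3.65% when detection in all 3 tissues was asked for, 5.39% and 3.52% without fractions of exactly 0 or 1, and 1.81% and 0.616% of GAT sites. At 0.1 the shares were 18.9% and 15.4% and at 0.3 they were 5.75% and 4.77%. The mean difference was 0.00771 after shifting to equal medians (3′ UTR 0.0127, CDS 0.00220, 5′ UTR 0.00831), 0.0166 among sites detected in at least 1 of the 3 tissues and 0.0183 in all 3. In 5′ UTRs it was 0.00832 at depth 50, 0.0167 with no depth minimum, 0.0189 with detection in at least 1 and 0.0163 in all 3, 0.00849 without exact 0 or 1 and 0.00784 at GAT sites. In introns it was 0.0101 at depth 50, 0.0302 with detection in at least 1, 0.0135 in 1 of the other 5 and 0.0110 in all 3. In CDS it was 0.00986 with detection in at least 1, 0.00365 in 1 of the other 5 and 0.00925 in all 3. The rank correlation of methylation with expression was −0.0219 in 3′ UTRs, −0.00419 with 3 or more sites, −0.0494 at depth 50, −0.00635 with detection in the other 5 tissues and 0.114 with no depth minimum. The cause of these shifts was not tested. A fraction at 20 reads is coarse, and genes near 1 TPM rest on few reads.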
